A study of Homo sapiens with 121 samples.

Results

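The genes described here are 8 regulators of mitochondrial biogenesis, taken by name from the table of expression values, which was read for 25610 genes in 121 single cells. They are the PGC-1 coactivators PPARGC1A, PPARGC1B and PPRC1, the transcription factor NRF1, the deacetylase SIRT1, the mitochondrial transcription factors TFAM and TFB2M, and POLG, the catalytic subunit of the mitochondrial DNA polymerase. All 8 were found in the table. Of the 8, 7 averaged at least 1 over all cells in TPM, a scale of transcript abundance per length with a fixed total per cell. They were set beside the 13439 genes that reached this level, while PPARGC1A did not reach it.

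The cells belong to WA26, a human embryonic stem cell (hESC) line kept undifferentiated without feeder cells in E8 medium on Matrigel. The labels name no added allele or treatment for any cell. Each was lysed singly and analysed by scT&R-seq, in which its polyadenylated RNA goes to a Smart-seq2 based library and its genomic DNA to a quantitative PCR of telomere repeats relative to Alu repeats. By that telomere length the sample titles sort them into 81 Long, 25 Medium and 15 Short cells. Only 1 line was used, and no culture, plate or batch is named for a cell, so each group counts as 1 sample: no p-value or standard error was computed, and SDs describe the spread across cells.

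Mitochondria carry a small circular genome, but most of their proteins, and all factors that copy and transcribe that genome, are encoded in the nucleus. PGC-1 coactivators bind transcription factors such as NRF1, which switch on nuclear genes for respiration as well as TFAM and TFB2M, whose products act on mitochondrial DNA. In mice with dysfunctional telomeres, a chain from the telomere to repression of PGC-1α and PGC-1β has been proposed, and the comparison of the 3 groups asks how these transcripts are distributed over cells that differ in telomere length. Pluripotent stem cells rely largely on glycolysis and have few mature mitochondria.

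The promoters of TFAM and TFB2M are shown since both genes are textbook targets of NRF1. The sequences are the 250 bases before the RefSeq transcription start in GRCh38.p14, chr10:58385160-58385409 (+) for TFAM and chr1:246566262-246566511 (-) for TFB2M, read 5′ to 3′ along the gene. Capitals mark the letters CGCNTGCGC of an NRF1 element or CGGAAG of an ETS element, the kind bound by GABPA, searched on both strands.
TFAM: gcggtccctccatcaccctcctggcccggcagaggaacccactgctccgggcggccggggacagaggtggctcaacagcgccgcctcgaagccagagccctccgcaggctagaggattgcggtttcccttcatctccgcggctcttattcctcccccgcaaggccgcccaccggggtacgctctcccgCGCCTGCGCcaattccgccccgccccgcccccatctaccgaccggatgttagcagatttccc
TFB2M: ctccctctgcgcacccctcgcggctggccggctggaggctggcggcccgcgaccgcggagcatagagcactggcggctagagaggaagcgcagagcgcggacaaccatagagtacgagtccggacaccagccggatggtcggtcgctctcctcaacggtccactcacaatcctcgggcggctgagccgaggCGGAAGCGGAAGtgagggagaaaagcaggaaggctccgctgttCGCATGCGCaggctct

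The NRF1 match began 62 bases before the start of TFAM and 16 bases before that of TFB2M, and TFB2M had ETS matches at 59 and 53 bases. Of 35116 promoters of this length in the table, 6.56% held the NRF1 letters and 16.5% the ETS letters. Promoters were found for 7 of the 8 genes, not for NRF1 itself. The E-box CACGTG, present in 6.34% of all promoters, occurred at 123 and 44 bases before the start of SIRT1 and at 123 bases in 1 of the 2 promoters of PPARGC1A. None of these letters occurred in the windows of PPARGC1B, PPRC1 and POLG. The motifs were chosen after the promoters had been seen, and a match is a run of letters, not a measured binding site.

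A gene was counted as detected in a cell above TPM 1. The number of detected genes had a median of 9165 in Long cells (4002 to 11515) and of 5620 in Short cells (2030 to 10045). The border of 8000 detected genes was passed by 51 Long, 14 Medium and 3 Short cells, so cells with few detected genes make up most of the Short group. TPM summed to a nearly equal total in every cell and keeps no read number, so depth is unknown, and a smaller RNA content, a less complete library and fewer expressed genes cannot be told apart. All 8 hESC markers examined, such as POU5F1, NANOG and SOX2, were detected in 82.6 to 100% of the 121 cells. Their summed TPM had a median of 2898 in Long, 2499 in Medium and 1210 in Short cells. Of the 5 endoderm, 5 mesoderm, 4 neural and 5 fibroblast markers, 1 of each list was detected in no cell (GATA6, HAND1, NEUROG2 and COL3A1), and the most often detected was found in 19.0%, 38.0%, 57.0% and 94.2% of cells. The summed TPM of the endoderm, mesoderm and neural lists had medians of at most 10.4 in any group. That of the fibroblast list had a median of 140.5 in Long (0.4 to 608.0), 113.8 in Medium (0.18 to 494.1) and 111.5 in Short cells (0.63 to 452.8). This list held COL1A1, COL1A2, COL3A1, THY1 and DCN, and a sum does not show which gene it comes from, so it does not identify fibroblasts. The neural list included OTX2, which the paper lists among genes that mark the state of hESCs. The part of such cells or transcripts in the results was not tested.

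The 8 regulators differed widely in level, with the mitochondrial transcription factors at the top and PPARGC1A at the bottom. Mean TPM over the 121 cells was 43.0 for TFAM, 41.2 for TFB2M, 17.0 for SIRT1, 13.1 for PPRC1, 3.56 for POLG, 2.42 for NRF1, 1.86 for PPARGC1B and 0.305 for PPARGC1A. The step between any neighbours in this order was smaller than the SD across cells of the higher gene, and by the median SIRT1 lay below PPRC1 and NRF1 below PPARGC1B. Among the coactivators, PPRC1, the PGC-1 related coactivator described in proliferating cells, was therefore the most abundant transcript and PPARGC1A, the form induced by cold and exercise, was the least. The plot of levels by group shows every cell.

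**Figure D1:**
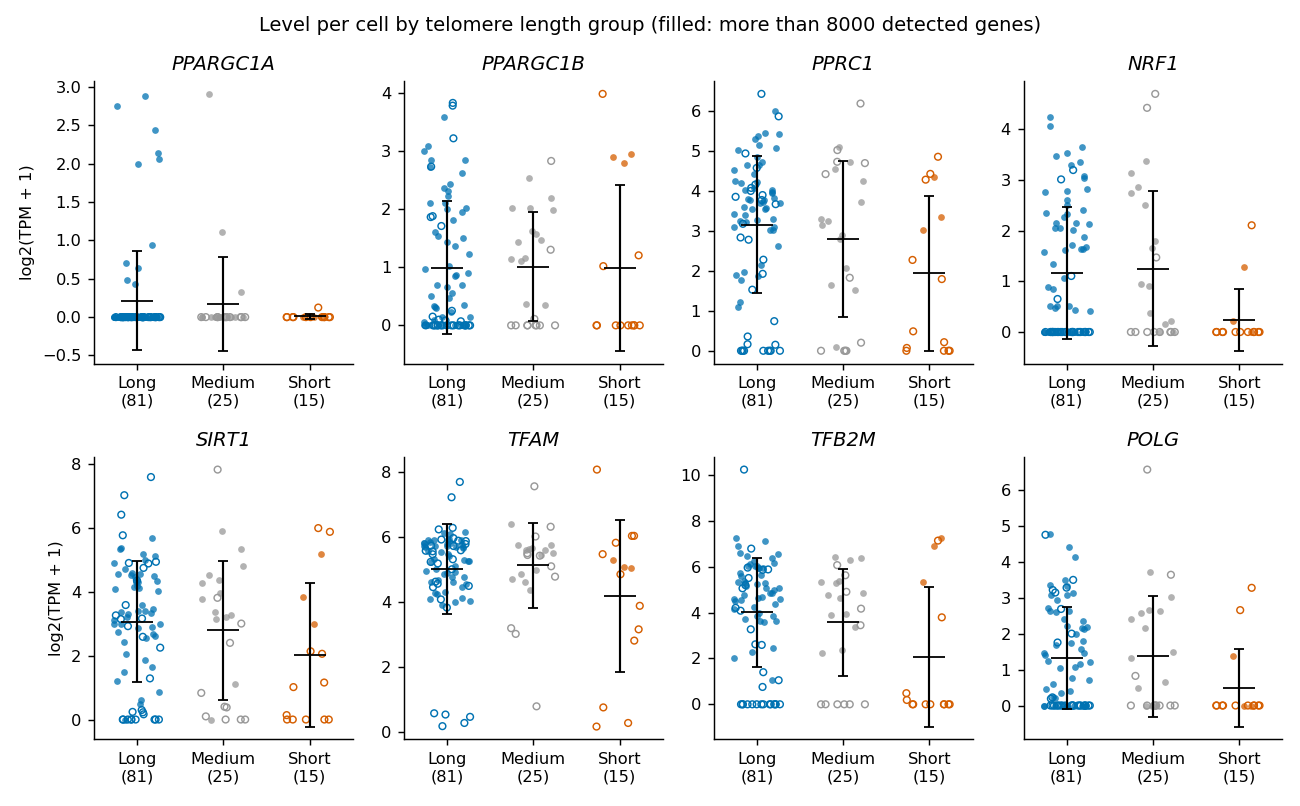
Level of each regulator, as log2(TPM + 1), in every cell of the Long (81), Medium (25) and Short (15) groups. Filled points are cells with more than 8000 detected genes and open points the other cells, and black bars give the mean ± SD across cells. Groups overlap for every gene, PPARGC1A lies at or near 0 in most cells, and most Short cells are open points.

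Short cells had lower mean levels than Long cells for PPRC1, NRF1, SIRT1, TFAM, TFB2M and POLG, while PPARGC1B did not differ and PPARGC1A was rare in each group. Differences are given on the scale of mean log2(TPM + 1), where changes of genes at low TPM are understated, and a difference of at least 1 was counted as higher or lower. Of the 7 regulators tested, 3 were higher by this measure in Long cells, PPRC1, SIRT1 and TFB2M. The background is high: 38.9% of the 13439 genes were higher in Long than in Short cells, so a count of 3 in 7 is near the share over all genes. The median Long minus Short difference was 0.92 for these 7, 0.87 for all 8, and 0.70 for all genes tested. At a mean of 10 TPM or more there were 6213 genes, of which 66.5% were higher in Long cells, with a median of 1.40, and 3 of the 4 regulators at this level were higher, with a median of 1.13. In the other direction, 3.75% of genes were lower by at least 1 in Long than in Short cells, and 0 of the regulators were.

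Between Long and Medium cells 0.893% of all genes were higher by at least 1 in Long cells and 0.387% were lower. None of the 7 regulators was in either set, their differences lying between -0.12 for TFAM and 0.43 for TFB2M. Between Medium and Short cells 33.8% of genes were higher in Medium, among them 2 of the 7 regulators, NRF1 at 1.01 and TFB2M at 1.51. The value of NRF1 was below 1 in 21 of 121 omissions of a single cell, down to 0.87 without Medium cell 13, while TFAM reached 1 in 11, PPRC1 in 4, and SIRT1 and POLG in 2 each. Since the same Short cells serve both comparisons and the same Long and Medium cells recur, these are not separate observations.

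PPARGC1A encodes PGC-1α, the founding coactivator of the family, which raises mitochondrial biogenesis in muscle and brown fat. The gene lies at chr4:23756664-23905712 (-) in GRCh37, the build of the deposited values. Its TPM was 0 in the median cell of every group, with a highest value of 6.38 in Long, 6.51 in Medium and 0.09 in Short cells. It was detected in 6 of 81 Long cells (7.41%, exact 95% interval 2.77 to 15.4), in 2 of 25 Medium cells (8.00%, 0.984 to 26.0) and in 0 of 15 Short cells, which allows a share of up to 20% by the limit of 3 counts and 21.8% by the exact interval. All 8 cells that passed TPM 1 had more than 8000 detected genes, 8 of 68 such cells against 0 of 53 with fewer. Only 3 Short cells lie above this border, so the absence of PPARGC1A from Short cells does not show a difference from Long cells. Intervals here and elsewhere cover counting error only.

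PPARGC1B encodes PGC-1β, which shares targets with PGC-1α and keeps up basal mitochondrial function. It lies at chr5:149109861-149234585 (+) in GRCh37 and hosts the microRNA gene MIR378A. The Long cells ran from 0 to 13.29 TPM with a median of 0.38, the Medium cells from 0 to 6.14 with a median of 1.22, and the Short cells from 0 to 14.92 with a median of 0. Detection was 38.3% in Long (27.7 to 49.7), 56.0% in Medium (34.9 to 75.6) and 40.0% in Short cells (16.3 to 67.7). The mean log2 level was 1.00 ± 1.14 in Long cells (SD across cells), 1.01 ± 0.94 in Medium cells and 0.99 ± 1.43 in Short cells. The groups overlap throughout, and the Long minus Short difference of 0.00 lies at percentile 20.9 of all genes tested, where most differences are above 0. The single highest value, 14.92, belongs to Short cell 12.

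PPRC1 encodes the PGC-1 related coactivator, which binds NRF1 and is induced when cells enter the cycle. It lies at chr10:103892751-103910090 (+) in GRCh37. Values of the Long cells ran from 0 to 84.46 TPM with a median of 11.0, the Medium cells from 0 to 71.30 with a median of 7.78, and the Short cells from 0 to 27.77 with a median of 2.46. The ranges overlap, with the Short cells reaching 20.39 and 27.77 in cells 4 and 2. Mean log2 levels of 3.15 ± 1.70 in Long and 1.94 ± 1.94 in Short cells gave a difference of 1.21, and the Long cell was higher in 66.1% of Long-Short cell pairs. The gene was detected in 84.0% of Long cells (74.1 to 91.2), 76.0% of Medium cells (54.9 to 90.6) and 53.3% of Short cells (26.6 to 78.7). In cells with more than 8000 detected genes PPRC1 was detected in 67 of 68 cells, and the difference was 0.16.

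NRF1 encodes nuclear respiratory factor 1, which binds promoters of respiratory chain genes and of the factors that enter mitochondria to act on their DNA. It lies at chr7:129251561-129396922 (+) in GRCh37. The Long cells ran from 0 to 17.99 TPM with a median of 0.43, the Medium cells from 0 to 24.91 with a median of 0.29, and the Short cells from 0 to 3.30 with a median of 0. Only Short cells 1 and 5 passed TPM 1, which is 13.3% (1.66 to 40.5), compared with 44.4% of Long (33.4 to 55.9) and 40.0% of Medium cells (21.1 to 61.3). The mean log2 level was 1.16 ± 1.30 in Long and 0.24 ± 0.61 in Short cells, a difference of 0.92, which became 1.05 when Short cell 5 was left out. Among cells with at most 8000 detected genes NRF1 was detected in 3 of 30 Long and 1 of 12 Short cells, and the difference was 0.09. Above the border it was detected in 33 of 51 Long and 1 of 3 Short cells, and the difference was 1.18.

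SIRT1 encodes an NAD-dependent deacetylase that acts on PGC-1α. It lies at chr10:69644414-69678147 (+) in GRCh37. Among Long cells SIRT1 ran from 0 to 191.1 TPM with a median of 8.57, the Medium cells from 0 to 224.8 with a median of 8.24, and the Short cells from 0 to 62.49 with a median of 1.23. The Short values were uneven, with cells 2, 8 and 10 at 62.49, 57.55 and 35.08 and the other Short cells between 0 and 13.37. The mean log2 level was 3.06 ± 1.90 in Long and 2.02 ± 2.24 in Short cells. Their difference of 1.04 fell below 1 when any of 11 single cells was left out (Long cells 4, 9 and 22 and Short cells 6, 7, 9, 11, 12, 13, 14 and 15), to 0.89 at the lowest. In cells with more than 8000 detected genes the sign turned, with a difference of -0.58.

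TFAM packages mitochondrial DNA and starts its transcription. The gene lies at chr10:60145105-60158980 (+) in GRCh37, and has the pseudogenes TFAMP1 and TFAMP2, with which it may share reads. It was above 0 in all 121 cells. The Long cells ran from 0.14 to 207.6 TPM with a median of 39.65, the Medium cells from 0.74 to 189.0 with a median of 42.94, and the Short cells from 0.13 to 270.6 with a median of 32.10. Detection was 93.8% in Long (86.2 to 98.0), 96.0% in Medium (79.6 to 99.9) and 80.0% in Short cells (51.9 to 95.7). The medians of TFAM were thus close, but the Short cells were more uneven. Values above 10 TPM were found in 93.8% of Long, 88.0% of Medium and 66.7% of Short cells. The 9 cells under TPM 1 all had at most 8000 detected genes.

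The mean log2 level of TFAM was 5.02 ± 1.39 in Long cells, 5.13 ± 1.30 in Medium cells and 4.19 ± 2.33 in Short cells. The Long minus Short difference of 0.82 was 0.54 without Short cell 9 and 1.10 without Short cell 15. Short cell 15 had the highest TFAM value of all cells and, with 2030, the fewest detected genes of the Short group. In cells with more than 8000 detected genes the 51 Long cells had 40.2 ± 16.6 TPM and the 3 Short cells 34.5 ± 3.25, and the log2 difference of 0.08 equalled the median over all genes.

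TFB2M encodes the factor that opens mitochondrial promoters together with TFAM and the RNA polymerase POLRMT. It lies at chr1:246703863-246729563 (-) in GRCh37. The Long cells ran from 0 to 1207 TPM with a median of 24.2, the Medium cells from 0 to 84.81 with a median of 17.0, and the Short cells from 0 to 149.8 with a median of 0. Long cell 4 alone, with 4366 detected genes, held 24.2% of the TFB2M signal of the 121 cells, and the next cell stood at 152.5. Detection was 81.5% in Long (71.3 to 89.2), 76.0% in Medium (54.9 to 90.6) and 33.3% in Short cells (11.8 to 61.6).

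The mean log2 level of TFB2M was 4.01 ± 2.38 in Long and 2.07 ± 3.04 in Short cells. The difference of 1.94 was larger than that of the other 7 regulators and lay at percentile 87.4 of all genes tested. It stayed between 1.79 and 2.31 when any single cell was left out. The Short cells fell into 10 cells at TPM 0.4 or less and 5 between 12.86 and 149.8. Cells 1, 3 and 10, the 3 with more than 8000 detected genes, were among the latter, at 117.5, 39.24 and 149.8, against a median of 32.9 in the 51 Long cells above this border. The difference there was -1.50, and TFB2M was detected in all 68 cells of this set.

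POLG copies and proofreads mitochondrial DNA. The gene lies at chr15:89848429-89878092 (-) in GRCh37 and overlaps FANCI, so reads at the overlap could belong to either. Its level in Long cells ran from 0 to 26.49 TPM with a median of 1.06, the Medium cells from 0 to 93.48 with a median of 0.57, and the Short cells from 0 to 8.67 with a median of 0. Only Short cells 3, 4 and 5 had a value above 0, at 1.61, 5.29 and 8.67. Detection was 50.6% in Long (39.3 to 61.9), 44.0% in Medium (24.4 to 65.1) and 20.0% in Short cells (4.33 to 48.1). The mean log2 levels of 1.32 ± 1.41 in Long and 0.49 ± 1.07 in Short cells differed by 0.83, or by 1.03 without Short cell 5. Medium cell 7, with 93.48, held 21.7% of the POLG signal of all cells.

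**Figure D2:**
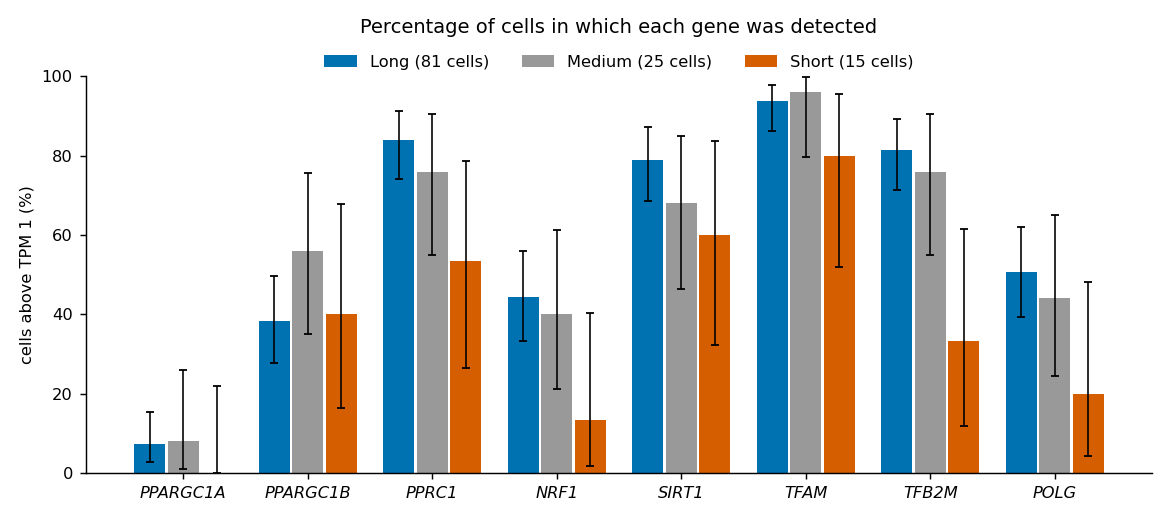
Percentage of Long, Medium and Short cells with each regulator above TPM 1. Error bars are exact 95% intervals and cover counting error only. TFAM was detected in 93.8%, 96.0% and 80.0% of the groups, TFB2M in 81.5%, 76.0% and 33.3%, and PPARGC1A in at most 8.00%.

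Fewer of the regulators were detected in Short than in Long cells. Detected genes of any kind were fewer too, with medians of 5620 in Short and 9165 in Long cells. The same count was not made for other sets of genes, so the drop is not shown to be particular to the regulators. A cell had a median of 5 of the 8 regulators in the Long and the Medium group and 2 in the Short group. With more than 8000 detected genes the median was 6 in each of the 3 groups, which for the Short group rests on 3 cells. With 8000 or fewer, Long and Medium cells had a median of 3 and Short cells of 2. At least 1 of the 3 PGC-1 coactivators was detected in 87.7% of Long, 80.0% of Medium and 66.7% of Short cells, and in 67 of the 68 cells above the border. Only 1 cell, of the Long group, had all 8 regulators.

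Across the 121 cells, Spearman's rho between TPM and the number of detected genes was 0.615 for NRF1, 0.588 for TFB2M, 0.507 for POLG, 0.494 for PPARGC1B, 0.387 for PPRC1, 0.361 for PPARGC1A and 0.359 for SIRT1. The rho of TFAM was 0.0448. Pearson's r on the log2 scale was 0.245 for TFAM, next to 0.278 for PPARGC1A, and 0.639 for TFB2M. Spearman's rho with the number of detected genes had a median of 0.321 over the 6213 genes at 10 TPM or more. Among the regulators, only PPRC1, SIRT1, TFAM and TFB2M averaged 10 TPM or more. These correlations describe cells of 1 line that may share culture, plate and library preparation.

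**Figure D3:**
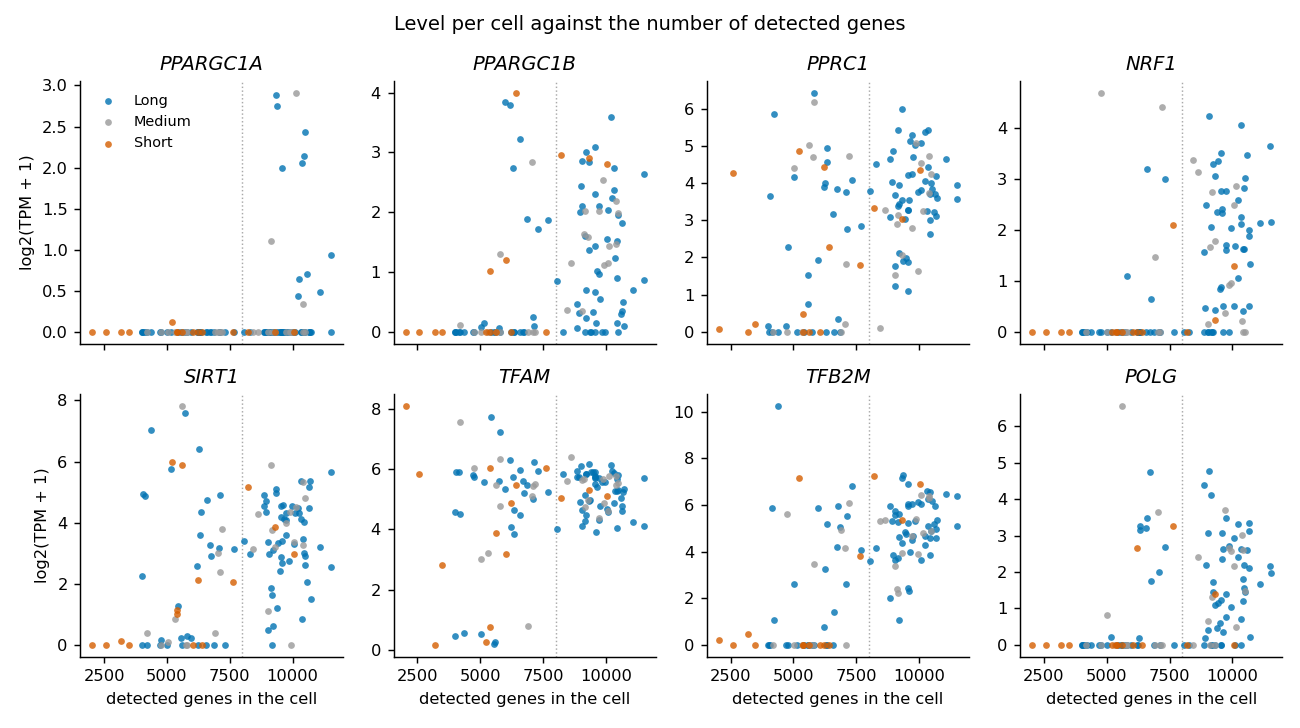
Level of each regulator, as log2(TPM + 1), against the number of genes above TPM 1 in the same cell, for Long (blue), Medium (grey) and Short (orange) cells. The dotted line marks 8000 detected genes. NRF1 is mostly at 0 left of the line and mostly above 0 right of it. TFB2M is above 0 in 25 of 53 cells on the left and in all 68 on the right. TFAM has a median of 39.1 TPM on the left and 40.6 on the right, but spreads more widely on the left, with a log2 SD of 2.14 against 0.62.

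When the cells were split at 8000 detected genes, the pattern of Long against Short differences changed. The split does not match gene number: in the lower set Long cells start at 4002 detected genes and Short cells at 2030. Above the border of 8000, 11.4% of all genes were higher by at least 1 in Long cells, and NRF1 and POLG were among them at 1.18 and 1.15. In the same cells 9.37% of genes were lower in Long than in Short cells, with PPARGC1B at -1.69 and TFB2M at -1.50. These rest on 3 Short cells. PPARGC1B measured 5.97, 6.52 and 6.78 TPM in these 3, against a median of 0.860 and a range of 0 to 11.08 in the 51 Long cells. The Short values lie inside the Long range, the Long cell was higher in 7.19% of pairs, and all 3 exceed the 14 Medium cells of this set, whose highest value was 4.82.

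Among cells with 8000 or fewer detected genes, 26.4% of all genes were higher in Long cells, and TFB2M at 1.38 was the 1 regulator of the 7 among them. SIRT1 was at 0.93, TFAM at 0.70, PPRC1 at 0.64, POLG at 0.33, PPARGC1B at 0.14 and NRF1 at 0.09, beside a median of 0.37 over all genes. When each gene's log2 level was adjusted linearly for the number of detected genes, 11.0% of genes remained higher by at least 1 in Long cells and 0 of the regulators did. The adjusted differences ran from -0.48 for PPARGC1B to 0.41 for TFAM, and the median over all genes was 0.12. Telomere group and number of detected genes go together in these cells, and neither of these comparisons tells them apart fully.

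**Figure D4:**
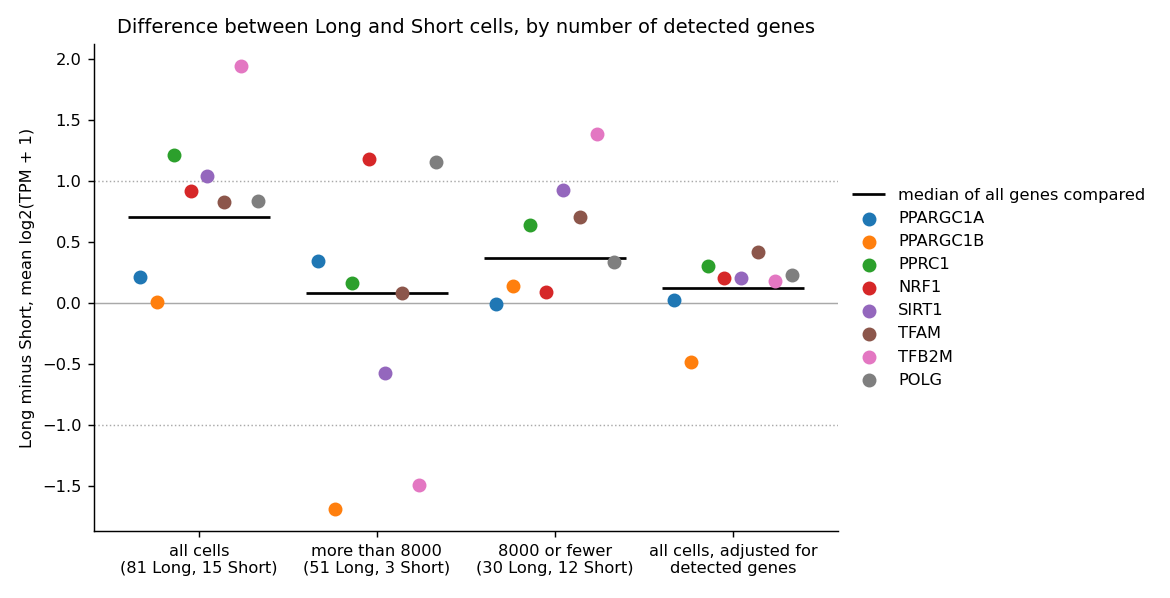
Long minus Short difference of mean log2(TPM + 1) for each regulator in all cells, in cells with more than 8000 detected genes, in cells with 8000 or fewer, and in all cells after linear adjustment for the number of detected genes. Black lines are the median of all 13439 genes compared and dotted lines mark differences of 1 and -1. TFB2M moves from 1.94 to -1.50 and PPARGC1B from 0.00 to -1.69 in cells with more than 8000 detected genes.

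The regulators varied little together from cell to cell. Over the 28 pairs of regulators the median rho across 121 cells was 0.205, and 7 pairs exceeded 0.3. The highest was between NRF1 and TFB2M, at 0.509, and TFAM had a rho of 0.192 with NRF1 and 0.0587 with TFB2M. In cells with more than 8000 detected genes the median over pairs was 0.0796, NRF1 and TFB2M had 0.177, and 1 pair, PPARGC1B and SIRT1 at 0.339, exceeded 0.3. The coactivators were as loosely related, with 0.119 between PPARGC1A and PPARGC1B and 0.111 between PPARGC1B and PPRC1 over all cells.

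The genes most alike to each regulator, among those averaging 10 TPM or more, were ranked by rho of TPM across the 121 cells. TFB2M was followed by HMGN4 at 0.666, RRM2B at 0.650 and GMCL1 at 0.627. For POLG they were IGBP1 at 0.600, KIAA1033 at 0.508 and PRCP at 0.505, and for NRF1 they were VAMP7 at 0.593, EXO1 at 0.590 and OTUD6B at 0.578. All 9 of these had a rho of at least 0.5 with the number of detected genes too, which they share with the regulators.

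PPARGC1B was most alike to MARS2 at 0.548, MTMR2 at 0.524 and STIL at 0.516, SIRT1 to UGDH at 0.505 and LINC00836 at 0.450, and PPRC1 to CNOT1 at 0.462 and RPS4X at 0.456. TFAM had METTL5 at 0.440, OR2A1-AS1 at 0.396 and MRPS25, a protein of the mitochondrial ribosome, at 0.360. PPARGC1A, above TPM 1 in 8 cells, had ICE2 at 0.422, DLD at 0.384 and NSUN7 at 0.382. Of these, MARS2, MTMR2, STIL, RPS4X, ICE2 and NSUN7 also had a rho above 0.5 with the number of detected genes. The others had less, down to 0.0429 for MRPS25. For every regulator the named genes are the highest of the 6213 ranked in these same cells, so their rho is raised by the choice.

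The partners of these regulators were described in 7 lists, by the same measure and beside the same background of 38.9%, and in none of them was a gene averaging 1 TPM or more lower by at least 1 in Long cells. PARK2, at 0.999 TPM on average just under this level, was at -1.04. Above 8000 detected genes 11.4% of all genes were higher and 9.37% lower, with a median of 0.08. After adjustment 11.0% were higher, with a median of 0.12. Among nuclear transcription factors and receptors that work with PGC-1, 6 of 12 were higher by at least 1 in Long cells, with a median of 1.07. These included GABPB1 and GABPA, subunits of the ETS factor GABP, at 2.35 and 1.74, and CREB1, a known activator of the PPARGC1A gene, at 1.83. Above 8000 detected genes GABPB1, GABPA and CREB1 were at 0.18, -0.18 and 0.11, with 0 of the 12 genes higher, 1 lower and a median of 0.14, and after adjustment for detected genes 0 of 12 were higher. ESRRA, the estrogen related receptor that PGC-1α binds, was at 0.91 and GABPB2 at 0.48. The fatty acid sensing receptors PPARA at -0.92 and PPARD at -0.95 had the lowest values of the list, both with higher means in Short cells.

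Among upstream regulators of PGC-1, 4 of 13 were higher, with a median of 0.48. Above 8000 detected genes 1 was higher and 1 lower, with a median of -0.07. CDKN1A, an inhibitor of the cell cycle, had a mean of 0.0513 TPM and was detected in 2 of the 121 cells. PRKAG1, a subunit of the energy sensor AMPK, was at 2.26 and the corepressor NCOR1 at 1.55. The AMPK catalytic subunits PRKAA1 at 0.38 and PRKAA2 at -0.16 and the mitochondrial deacetylase SIRT3 at -0.59 were lowest.

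Of the mitochondrial transcription genes, 8 of 13 were higher, with a median of 1.37. Most of them average above 10 TPM, where 66.5% of all genes were higher in Long cells and the median was 1.40. In cells with more than 8000 detected genes, 3 of them Short, this list differed most from all genes. There 5 of 13 were higher, with a median of 0.81, beside 11.4% and 0.08 over all genes. TFB1M, the paralog of TFB2M that methylates mitochondrial ribosomal RNA, was at 2.51, MTERF3 at 2.14 and the RNA binding protein LRPPRC at 2.1. In cells with more than 8000 detected genes TFB1M was at 1.63, opposite in sign to TFB2M. After adjustment 2 of the 13 were higher, with a median of 0.28, beside 11.0% and 0.12 over all genes. In all cells POLRMT, the mitochondrial RNA polymerase, was at 0.43. MTPAP was at 0.28, PNPT1 at 0.26 and SLIRP, the partner of LRPPRC, at 0.10. Above 8000 detected genes POLRMT was the highest of the list, at 1.89, with TEFM at 1.72, MTERF3 at 1.44 and MTERF2 at 1.18. The lowest there were MTERF1 at -0.97, PNPT1 at -0.92 and LRPPRC at -0.78.

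Of the genes for replication and upkeep of mitochondrial DNA, 8 of 15 were higher, with a median of 1.64. Most of these too average above 10 TPM, where 66.5% of all genes were higher and the median was 1.40. Above 8000 detected genes 2 of the 15 were higher and 2 lower, with a median of 0.14, and after adjustment 1 was higher, with a median of 0.44. POLG2, the accessory subunit of the polymerase, was at 1.81, compared with 0.83 for POLG, and the helicase TWNK was at 0.96. SUCLA2 was at 2.88, MPV17 at 2.21 and the nuclease DNA2 at 2.1, while DNA2 was at -1.19 above 8000 detected genes. The single-strand binding protein SSBP1 at 0.61, the topoisomerase TOP1MT at 0.53 and the protease LONP1 at 0.49 had the lowest values.

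Of 18 respiration genes known to respond to PGC-1, 6 were higher, with a median of 0.73. All 18 average more than 10 TPM, a level at which 66.5% of all genes were higher in Long cells and the median was 1.40. Above 8000 detected genes 1 of the 18 was higher and 1 lower, with a median of 0.13. With 8000 or fewer 7 were higher, with a median of 0.83, beside 26.4% and 0.37 over all genes. After adjustment 2 were higher, with a median of 0.52, beside 11.0% and 0.12. In all cells NDUFB5 of complex I was at 2.97, the citrate synthase gene CS at 2.55 and SDHA of complex II at 2.13. Above 8000 detected genes these were at 0.16, 0.45 and 2.03. The abundant subunit transcripts ATP5J at -0.11, COX7B at -0.12 and COX5B at -0.55, each detected in all 121 cells, were lowest when all cells were compared.

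The lists of import and of organelle dynamics had the largest shares of higher genes and the highest medians of the 7 lists in all cells. For import and chaperones, 9 of 12 were higher, with a median of 1.70, led by PMPCB at 2.85, TIMM17A at 2.80 and TOMM20 at 2.75, while TOMM40 was at 0.93, TIMM44 at 0.25 and HSPE1 at 0.18. For fusion, fission and clearance, 8 of 11 were higher, with a median of 1.84, led by the fission factor MFF at 3.13 and the mitophagy receptors BNIP3 at 2.88 and BNIP3L at 2.82, with DNM1L at 0.61, MFN2 at 0.48 and FIS1 at 0.04. In cells with more than 8000 detected genes, 3 of them Short, the medians of these lists were -0.04 and 0.03, with 0 genes higher in either. With 8000 or fewer, 10 of 12 and 7 of 11 were higher, with medians of 1.77 and 1.29, beside 26.4% of all genes. After adjustment 6 of 12 and 4 of 11 remained higher, with medians of 1.04 and 0.40, beside 11.0% of all genes. At the higher levels that most of these genes have, above 10 TPM, 66.5% of all genes were higher in Long cells when all cells were compared, with a median of 1.40. In all cells both lists lay nearer to these values than to the 38.9% and 0.70 of all genes tested.

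**Figure D5:**
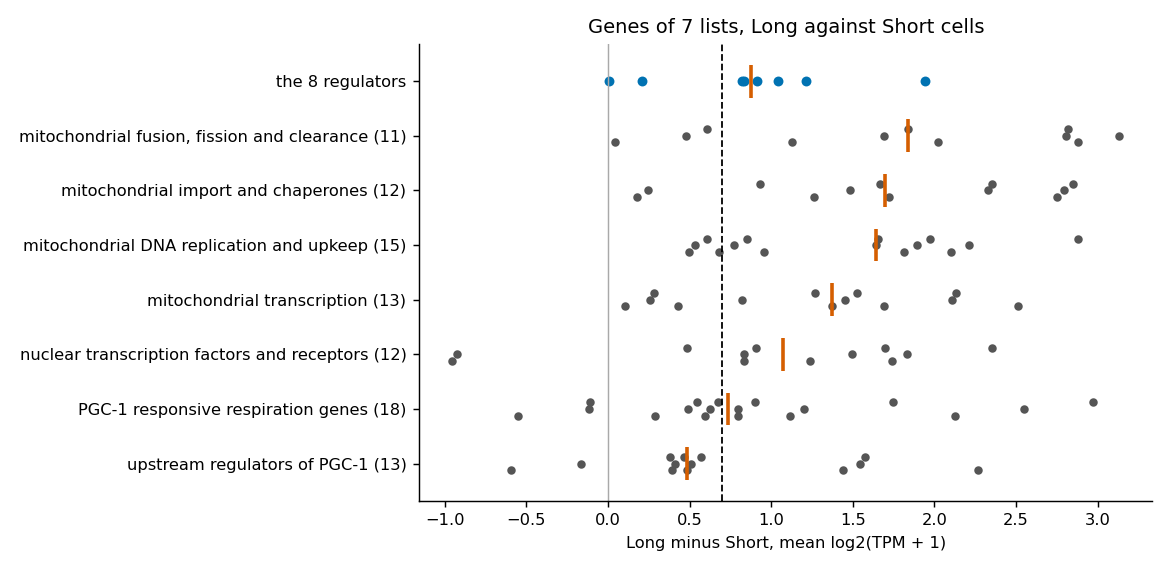
Long minus Short difference of mean log2(TPM + 1) in all cells for the 8 regulators (blue) and for the genes of 7 lists that average at least 1 TPM (grey, number in brackets). Orange bars are medians and the dashed line is the median of 0.70 over all 13439 genes. The median of the regulators is 0.87 and those of the lists run from 0.48 to 1.84.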

How the data were processed

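Single cells of WA26 were analysed by scT&R-seq. The authors used TopHat with the hg19 build, HTSeq for counting per RefGene gene, and a size factor function. The submitters' processing notes also name RSEM. The authors deposited TPM values with 2 decimals, 1 column per cell, without read numbers. Genes were read in order of symbol up to ZFR, and 1 incomplete line was left out. No pair of cells had identical values. Groups were taken from the sample titles, and the T/R ratio of each cell was not used here.

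Levels are log2(TPM + 1), compared as differences of group means and as the percentage of pairs of cells. Genes entered with a mean TPM of at least 1, and a gene was detected above TPM 1. Exact intervals are Clopper-Pearson at 95%, and a count of 0 was read as at most 3. The members, the 7 gene lists and the border of 8000 detected genes were chosen with earlier results of these data known. Named are all members, up to 3 genes with the highest and the lowest Long minus Short difference of each list with known partners, and the 3 genes most alike to each member. Some genes that this rule names are not reported here. Alternatives tried were a pseudocount of 0.1 or 10, thresholds of detection of 0 and 10 TPM, other filters, medians, cells split at 8000 or without those under 4000 detected genes, linear adjustment, division by the median ratio over 602 genes above 0 in every cell, and rescaling without 86 ribosomal protein genes. Leaving out 1 cell at a time was added after seeing the data. Calculations were tested on simulated data. Promoters are from RefSeq, gene positions from a GRCh37 annotation. Tools were matplotlib 3.10.9, pandas 2.3.3, scipy 1.17.1, numpy 2.4.6 and Python 3.11.15.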

Additional observations from a re-analysis of the deposited data

How the results depend on the processing

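The count of regulators higher by at least 1 in Long than in Short cells, 3, became 6 with a pseudocount of 0.1 TPM (60.0% of all genes), 0 with 10 TPM (10.7%), and 1 in cells with 8000 or fewer detected genes (26.4%), without cells under 4000 (29.1%), and after division by the median ratio (29.1%). It was 0 after adjustment for detected genes (11.0%) and ran from 2 to 5 when 1 cell was left out at a time. For Medium against Short cells the count of 2 (33.8%) became 6 with a pseudocount of 0.1 (55.3%), 4 with medians (40.8%), and 0 with a pseudocount of 10 (9.17%), without cells under 4000 detected genes (24.6%) and after adjustment (11.5%). It was 1 with a mean TPM of at least 10 (59.9%), above (11.3%) and up to (26.1%) 8000 detected genes and after division by the median ratio (24.6%), and 1 to 4 when 1 cell was left out. The Long against Medium count of 0 ran from 0 to 0 when 1 cell was left out. The median Long minus Short difference, 0.87, was 1.88 and 0.28 with pseudocounts of 0.1 and 10, 0.12 above 8000 detected genes and 0.20 after adjustment, and 0.85 to 1.04 when 1 cell was left out. The direction turned above 8000 detected genes for SIRT1 (-0.58) and TFB2M (-1.50) in Long minus Short and for TFB2M (-1.83) in Medium minus Short, which was -0.033 after adjustment. Of the differences under 1 in all cells, those above 8000 detected genes also turned in Medium minus Short for PPRC1 (-0.50), SIRT1 (-0.35) and PPARGC1B (-1.39) and in Long minus Short for PPARGC1B (-1.69). In Long minus Medium, SIRT1 turned from 0.27 to -0.23 and NRF1 from -0.09 to 0.20 above this border. The cause of these changes was not tested. PPARGC1B, whose difference between Long and Short cells was 0.00, changed sign in 38 of 121 omissions. No paired analysis was possible because no test was run and the labels do not relate cells of different groups. TPM without read numbers and 15 Short cells, 3 of them above 8000 detected genes, limit every comparison.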
